A study of Homo sapiens with 6 samples.

Results

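The genes described here are the 4 ID genes (ID1, ID2, ID3 and ID4) and 6 genes that tune signalling by bone morphogenetic proteins (BMP) and transforming growth factor beta (TGF-β): SMAD6, SMAD7, SKI, SKIL, BAMBI and BMPR2. They were taken by gene symbol from the table of read counts, which holds 58735 features. Each symbol named 1 row, and all 10 passed the filter on low counts that left 16210 genes for testing. The cells are labelled BE(2)-C, an established human neuroblastoma line. They had been transduced with lentivirus carrying a non-silencing short hairpin RNA (NS, 3 libraries, genotype given as Wildtype) or a hairpin against ACSS2 (shACSS2, 3 libraries, genotype given as ACSS2 deficiency), and stable lines of both were selected with puromycin. ACSS2 makes acetyl-CoA from acetate in the nucleus and cytosol. The sample titles write siACSS2, and the treatment text calls the established line shNgBR in 1 place. Whether the lines are single clones or pools, and what drives the hairpin, is not given in the labels. No label states that a group's libraries are from separate cultures, so p-values reflect only the spread between libraries, which may be technical.

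ID proteins carry a helix-loop-helix domain without the basic stretch that touches DNA. They pair with E proteins and so keep E proteins and their tissue-specific bHLH partners off DNA, which holds back differentiation in many lineages, neural ones included. BMP ligands bind type I and type II receptor kinases, which phosphorylate SMAD1, SMAD5 and SMAD9, and these move with SMAD4 to target genes, of which the ID genes are the textbook example. TGF-β and activins use SMAD2 and SMAD3 in the same way. Several targets feed back: SMAD6 and SMAD7 are inhibitory SMADs that block receptors and receptor-regulated SMADs, SKI and SKIL (SnoN) are corepressors that sit on SMAD complexes, and BAMBI is a membrane pseudoreceptor without a kinase domain. BMPR2 is the main type II receptor for BMP ligands.

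The start sites of these genes differ in sequence, and the stretches around them are shown because BMP and TGF-β act on such genes through SMAD complexes. RefSeq promoter windows on GRCh38.p14, from 250 bases before to 50 after a start, were found for 9 of the 10 genes, all but SKI, and SMAD7 had 3 windows. ID1 (chr20:31605239-31605298, plus strand), ID3 (chr1:23559492-23559551, minus strand) and ID4 (chr6:19837320-19837379, plus strand) hold TATAA, the letters of a TATA box, at 31, 29 and 29 bases before the start. ID2 (chr2:8682006-8682065, plus strand) does not. Of the other genes with a window, SMAD7 holds TATAA in 1 of its 3 windows, 35 bases before the start, and SMAD6, SKIL, BAMBI and BMPR2 hold none there. TATAA starting between 40 and 16 bases before the start, on the gene's strand, was in 4.03% of 35116 windows and in 2.74% of the windows of tested genes; this search was chosen after the sequences were seen. The 60 bases from 50 before the start to 10 after it follow, 5′ to 3′ on the gene's strand, with TATAA in capitals.
ID1: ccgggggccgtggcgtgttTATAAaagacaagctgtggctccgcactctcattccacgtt
ID2: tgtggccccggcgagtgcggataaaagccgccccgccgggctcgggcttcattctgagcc
ID3: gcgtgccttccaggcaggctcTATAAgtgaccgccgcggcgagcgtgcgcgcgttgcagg
ID4: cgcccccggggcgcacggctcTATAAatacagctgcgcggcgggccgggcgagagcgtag

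Letters that SMAD complexes are known to bind, GGCGCC, GTCTAGAC and CAGACA, were searched on both strands of the same windows. None of them was in the windows of ID1, ID2, ID3 or ID4, which says only that these letters are not within these 300 bases. The palindrome GTCTAGAC was in the window of SMAD6, starting 12 bases before the start, against 0.202% of all windows and 0.165% of those of tested genes. GGCGCC was present 3 times in the window of BAMBI and 1 time each in those of SKIL and BMPR2, against a share of 19.2% of all windows and 29% of those of tested genes. CAGACA was in the window of BMPR2 alone, at 2 places, against 16.9% of all windows. The E-box CANNTG, the letters that bHLH dimers bind, was in windows of 5 of the 9 genes (ID2, ID4, SMAD6, SMAD7 and BMPR2) and in 68.7% of all windows. A match is a description of the sequence and no evidence of binding. BMPR2, whose window is not shown, holds SMAD letters and did not pass the test below, while ID1, ID2 and ID3 passed without them. The windows of SMAD6 (chr15:66701986-66702285, plus strand), BAMBI (chr10:28677271-28677570, plus strand) and SKIL (chr3:170357465-170357764, plus strand) follow, 3 genes past the test below, with the SMAD letters in capitals.
SMAD6: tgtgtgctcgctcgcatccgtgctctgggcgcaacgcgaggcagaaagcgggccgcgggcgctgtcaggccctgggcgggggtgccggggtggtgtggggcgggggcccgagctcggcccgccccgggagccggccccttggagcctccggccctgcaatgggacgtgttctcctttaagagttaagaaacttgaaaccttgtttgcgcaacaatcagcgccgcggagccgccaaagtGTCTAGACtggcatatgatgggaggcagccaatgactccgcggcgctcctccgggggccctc
BAMBI: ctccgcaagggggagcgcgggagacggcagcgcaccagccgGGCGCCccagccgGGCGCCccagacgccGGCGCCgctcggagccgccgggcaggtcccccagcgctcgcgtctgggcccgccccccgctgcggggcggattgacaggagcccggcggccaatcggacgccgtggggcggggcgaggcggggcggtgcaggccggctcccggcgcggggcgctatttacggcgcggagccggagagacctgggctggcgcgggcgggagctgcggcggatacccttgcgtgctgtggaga
SKIL: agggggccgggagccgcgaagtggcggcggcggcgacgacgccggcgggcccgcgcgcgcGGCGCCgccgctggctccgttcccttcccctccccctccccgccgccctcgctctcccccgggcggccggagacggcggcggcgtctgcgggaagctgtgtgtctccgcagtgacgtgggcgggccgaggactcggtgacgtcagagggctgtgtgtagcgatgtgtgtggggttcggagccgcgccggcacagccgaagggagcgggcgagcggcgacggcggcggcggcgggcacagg

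Library totals ran from 16617885 to 20831599 counts. ACSS2 itself stood at 20.8, 20.4 and 20.2 CPM in NS replicates 1 to 3 and at 4.67, 5.14 and 6.16 CPM in shACSS2 replicates 1 to 3, a log2 fold change of −1.94 (SE 0.145; exact two-sided permutation p = 0.1, the smallest that 3 against 3 allows). CPM are read counts scaled by library size and composition, and a gene is said to have risen or fallen only where its edgeR adjusted p was under 0.05. Of 10 sympathoadrenal neuroblastoma markers, PHOX2A and TH had 0 counts in every library and 6 had a mean of at least 1 CPM. BE(2)-C is known as a line with amplified MYCN, yet MYCN stood between 0.421 and 2.12 CPM. Some defining markers of the labelled cells were thus absent or scarce, and others were present. GATA3 averaged 21.0, ISL1 15.6 and HAND2 3.26 CPM, against 1.27 for CHGA, 1.62 for CHGB and under 1 CPM for DBH and DDC. The identity of the cells was not tested, and every value below describes cells labelled BE(2)-C. The summed level of these markers was 41.3 to 46.2 CPM in NS and 41.6 to 49.4 CPM in shACSS2. Of 9 mesenchymal or stromal markers 8 had a mean of at least 1 CPM, with COL1A2 at 0 counts, and sums of 464.5 to 529 CPM in NS and 423 to 486 CPM in shACSS2. Of 6 Schwann cell markers only ERBB3 reached 1 CPM on average. In bulk RNA, fewer cells of a type and less RNA per cell cannot be told apart.

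One library stood apart from its group. In shACSS2 replicate 1, genes rich in GC were lower and genes poor in GC higher than in the other two: the Spearman coefficient across genes between a library's deviation from its group and GC content was −0.6, against 0.47 and 0.39 in shACSS2 replicates 2 and 3 and −0.09 to 0.11 in NS. Each deviation is from a group mean that includes the library, so the coefficients of replicates 2 and 3 partly mirror that of replicate 1. Genes are not independent replicates, and this coefficient is a description. The median log2 difference between replicate 1 and the mean of replicates 2 and 3 was 0.297 in genes under 40% GC and −0.271 in those of 55% and over. Of the 10 genes, those poor in GC were higher in replicate 1 and most of those rich in GC lower, from 0.414 for BMPR2 (37.6% GC) and 0.273 for SKIL (33.4%) to −0.305 for SKI (60.0%) and −0.43 for SMAD6 (58.9%). ID4 was an exception, at −0.396 with 47.0% GC. ID2 was the least affected at 0.067, and BAMBI stood at 0.167. ID3, SMAD7 and ID1 lay between −0.233 and −0.18. Results that rest on this library are therefore given with and without it, and with a correction for GC content and length.

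**Figure D1:**
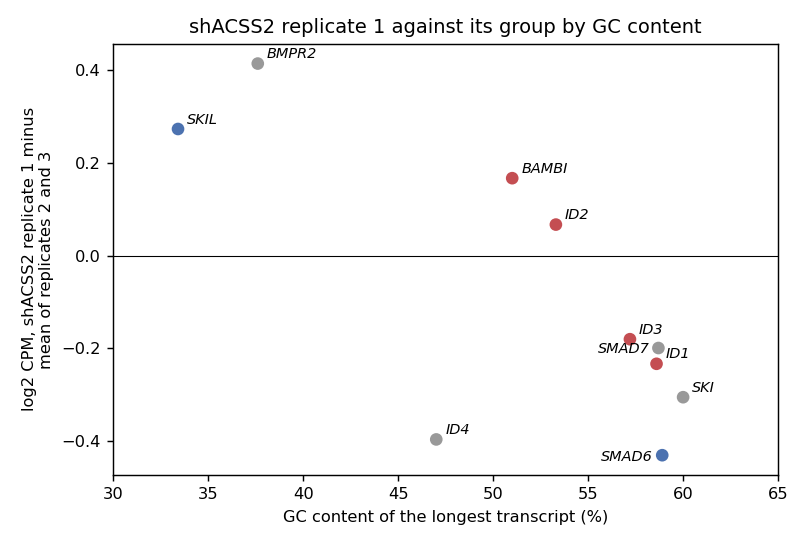
Each point is 1 gene, with the GC content of its longest annotated transcript (%) on the horizontal axis and the log2 CPM of shACSS2 replicate 1 minus the mean of replicates 2 and 3 on the vertical axis; red genes rose, blue genes fell and grey genes did not pass the test. BMPR2 and SKIL, the genes poorest in GC, lie above 0, and the 5 genes over 57% lie below it.

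Between the groups, 4 of the 10 genes rose in shACSS2 (ID1, ID2, ID3 and BAMBI), 2 fell (SMAD6 and SKIL) and 4 did not pass the test (ID4, SMAD7, SKI and BMPR2). Over all 16210 tested genes, 17.1% passed, 7.48% as higher and 9.64% as lower. The groups were apart in CPM for the same 6 of the 10 genes, against 36.3% of all tested genes. The changes were modest: the rises were 1.345- to 1.445-fold, and the falls left 0.702 and 0.648 of the NS level. The median log2 fold change of the 10 was 0.131 and the median of its size 0.441, beside 0.002 and 0.226 over all tested genes. The 10 were chosen with earlier results of these data known, so an excess over all tested genes may follow from the choice. Among the ID genes, the inhibitory SMADs and the SKI pair, some genes passed and others did not.

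**Figure D2:**
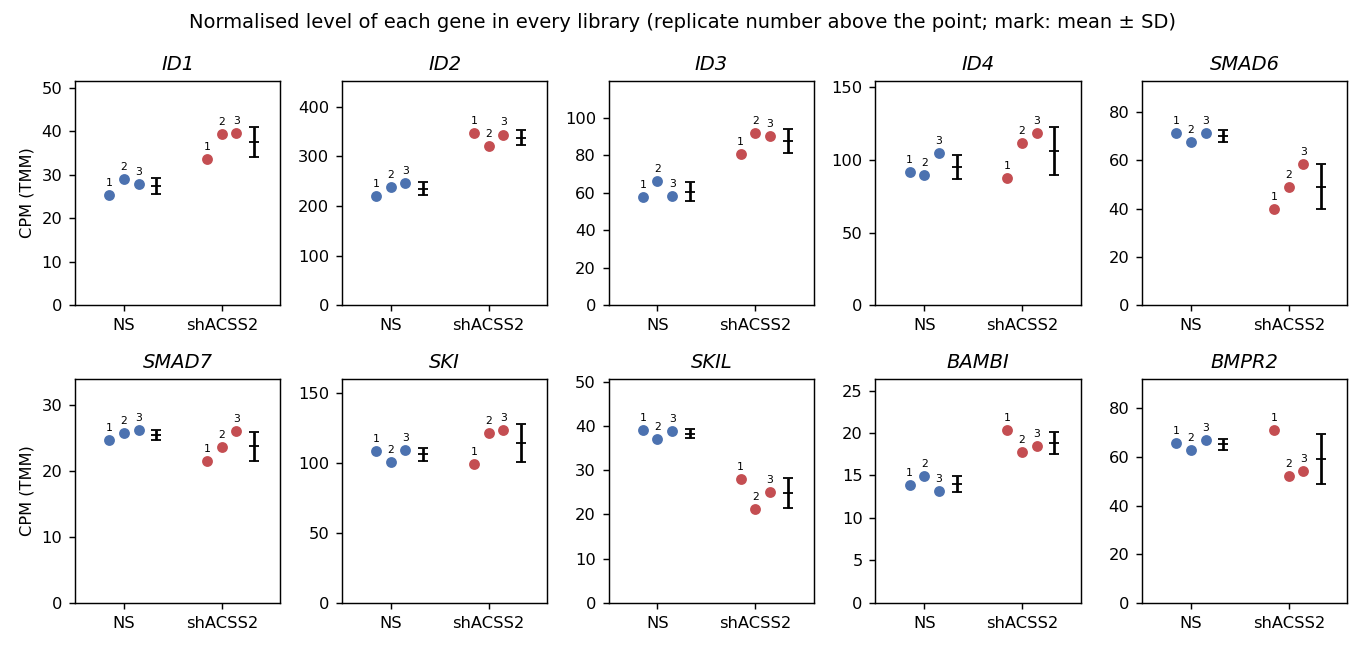
Normalised level (CPM) of each gene in the 3 NS libraries (blue) and the 3 shACSS2 libraries (red), with the replicate number above each point and the mean ± SD beside it. The groups are apart for ID1, ID2, ID3, SMAD6, SKIL and BAMBI and overlap for ID4, SMAD7, SKI and BMPR2, where shACSS2 replicate 1 lies away from replicates 2 and 3 for ID4, SKI and BMPR2.

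ID2 was the most abundant of the 10 and rose in shACSS2. Its gene lies on chromosome 2 (8678845 to 8684453, plus strand; all gene positions are GENCODE v29 on GRCh38). It stood at 220, 239 and 246 CPM in NS replicates 1 to 3 and at 348, 320 and 344 CPM in shACSS2 replicates 1 to 3. Every shACSS2 library was above every NS library, and the rise from 235 ± 13.4 to 337 ± 15 CPM (SD, 3 libraries each) exceeded the spread within either group. On the log2 scale the change was 0.52 (SE 0.0912; adjusted p by edgeR = 0.00167). ID2 shares 38 exon bases with the antisense gene ID2-AS1, which had 70 counts in all 6 libraries together, against 3869 to 6145 counts for ID2 in each library.

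ID3, on chromosome 1 (23557918 to 23559794, minus strand), rose by a like factor. It stood at 57.5, 66.3 and 58.0 CPM in NS and at 80.4, 91.9 and 90.3 CPM in shACSS2. The groups did not overlap, and shACSS2 replicate 1 was the lowest of its group. The means were 60.6 ± 4.92 and 87.5 ± 6.24 CPM (SD, 3 libraries each), a log2 fold change of 0.53 (SE 0.102; adjusted p by edgeR = 0.0030). The calls of ID2 and ID3 held in all 17 alternative settings that gave a fold change, with log2 fold changes of 0.45 to 0.56 for ID2 and 0.46 to 0.60 for ID3.

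ID1, on chromosome 20 (31605283 to 31606515, plus strand), is the ID gene most often used as a readout of BMP signalling. It stood at 25.3, 28.95 and 27.9 CPM in NS and at 33.6, 39.4 and 39.6 CPM in shACSS2, again with no overlap. The means were 27.4 ± 1.90 and 37.6 ± 3.41 CPM (SD, 3 libraries each), a log2 fold change of 0.45 (SE 0.113; adjusted p by edgeR = 0.0127). This call rested on single libraries: leaving out NS replicate 1 (0.40; adjusted p by edgeR = 0.0976), NS replicate 3 (0.47; 0.0507) or shACSS2 replicate 3 (0.42; 0.0515) ended it. Over all alternatives the adjusted p ran from 0.00104 to 0.0976, and the log2 fold change from 0.38 to 0.53.

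ID4, on chromosome 6 (19837386 to 19840684, plus strand), was the ID gene that did not pass the test. It stood at 91.3, 89.6 and 104.5 CPM in NS and at 87.5, 111.7 and 118.6 CPM in shACSS2. Replicate 1 of shACSS2 was the lowest of all 6 libraries and replicates 2 and 3 the highest, so the groups overlapped. This was a log2 fold change of 0.16 (SE 0.116; adjusted p by edgeR = 0.381). Without shACSS2 replicate 1 ID4 passed, at 0.28 (adjusted p by edgeR = 0.0210), while the correction for GC content and length gave 0.06 (0.771). Its adjusted p ran from 0.0210 to 0.781 over the alternatives.

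Compared per length (TPM, which divides counts by exon length), the 4 ID genes were the most abundant of the 10. The length is that of all annotated exons together and can exceed that of the transcripts present, so the order depends on it. In NS the order of levels was ID2 (402 ± 28.1 TPM), ID4 (153 ± 17.3), ID3 (127 ± 7.40), ID1 (83.8 ± 5.6), SKI (66.1 ± 4.59), SMAD6 (30.9 ± 1.80), BAMBI (22.8 ± 0.849), BMPR2 (20.7 ± 1.25), SMAD7 (19.1 ± 0.888) and SKIL (18.6 ± 0.989; SD, 3 libraries each). Neighbours in this order did not overlap over the NS libraries, except BMPR2 with SMAD7 and SMAD7 with SKIL. In shACSS2 ID2 reached 539 ± 30.6 TPM, ID3 172 ± 12.9 TPM, ID4 159 ± 26.0 TPM and ID1 107 ± 10.4 TPM. ID3 and ID4 thus changed places in the order of means, within their spread. ID2 made up 52.2%, 52.4% and 52.9% of the summed ID transcripts in NS and 59.05%, 52.6% and 54.0% in shACSS2.

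Of the E proteins, the partners that ID proteins bind, no gene passed the test. The genes TCF3 (E2A), TCF4 (E2-2) and TCF12 (HEB) gave 0 higher, 0 lower and 3 not past the test. Of all tested genes 17.1% passed, and with only 3 genes a count of 0 says little beside that share. TCF4 stood at 39.6 CPM in NS and 31.6 CPM in shACSS2, a log2 fold change of −0.32 (adjusted p by edgeR = 0.0650). Its call changed with the setting: it passed with library totals, without NS replicate 2 and without shACSS2 replicate 1 (−0.40, −0.42 and −0.39, with adjusted p by edgeR = 0.0302, 0.0354 and 0.0148), while the correction for GC content and length gave −0.03 (0.839). Its adjusted p ran from 0.0148 to 0.860 over the alternatives. TCF12 was at −0.17 (adjusted p = 0.279), and TCF3 stood at 187 CPM in both groups, with a direction that changed with the scaling. The summed ID level was 5.01, 5.57 and 5.55 times the summed E protein level in NS (TPM) and 8.55, 7.08 and 7.13 times in shACSS2. These ratios did not overlap, and the summed ID level went from 766 ± 48.6 to 977 ± 53.7 TPM while the E protein sum went from 143 ± 5.81 to 130 ± 18.6 TPM (SD, 3 libraries each). The highest ratio belongs to shACSS2 replicate 1, where the E protein sum was lowest, at 109.5 TPM. In shACSS2 replicates 2 and 3 that sum was 135.3 and 145.5 TPM, against 136.2 to 147.5 TPM in NS. The lower mean of the E protein sum in shACSS2 thus rests mostly on replicate 1, the library with the GC shift. The size of the ratios depends on the exon lengths used, which put TCF4 at 5.375 TPM in NS.

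**Figure D3:**
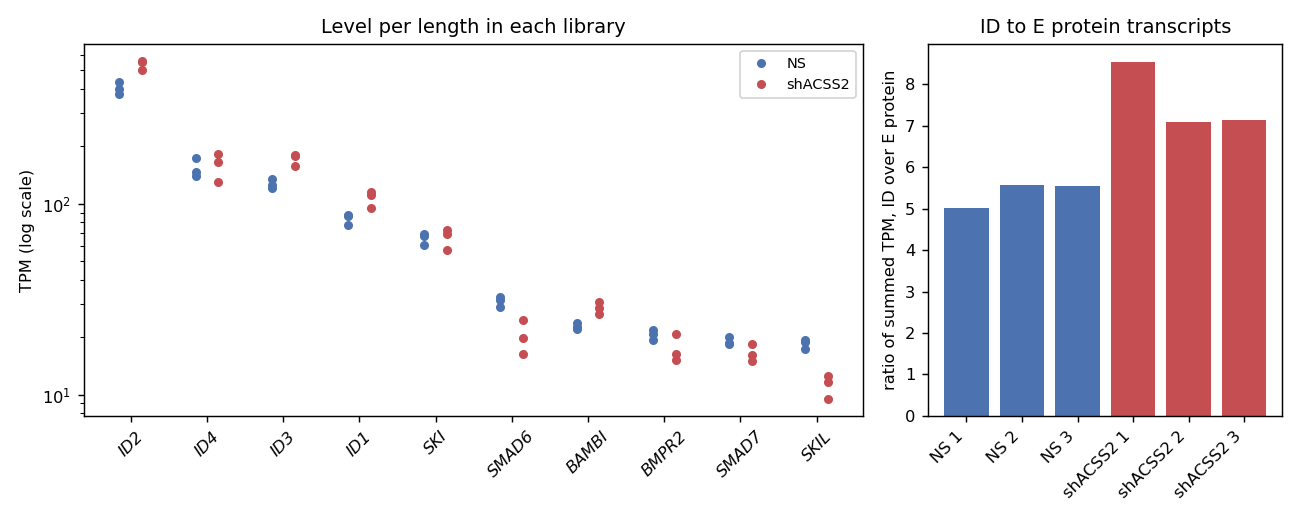
Left, the level per length (TPM, log scale) of each gene in every NS (blue) and shACSS2 (red) library, in the order of the NS means from ID2 at 402 to SKIL at 18.6 TPM. Right, the ratio of summed ID1 to ID4 TPM to summed TCF3, TCF4 and TCF12 TPM in each library, with bars of 5.01 to 5.57 in NS and 7.08 to 8.55 in shACSS2.

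Among the tissue-specific bHLH factors, the other side of the ID and E protein network, 2 of 11 tested rose and 0 fell. Of all tested genes 7.48% rose and 9.64% fell. HAND1, a factor of heart, trophoblast and sympathetic development, stood at 24.2, 24.2 and 24.7 CPM in NS and 33.4, 40.8 and 37.9 CPM in shACSS2. This was a log2 fold change of 0.62 (SE 0.111; adjusted p by edgeR = 0.00206), and the call held in all 17 alternatives. TWIST1, which is also on the list of mesenchymal markers, had a log2 fold change of 0.51 (SE 0.161; adjusted p by edgeR = 0.0404), with overlapping groups, since shACSS2 replicate 1 lay at 12.2 CPM and NS replicate 2 at 12.3 CPM. Its call was lost with library totals and when NS replicate 1, NS replicate 3, shACSS2 replicate 2 or shACSS2 replicate 3 was left out. The call held without shACSS2 replicate 1 and with the correction for GC content and length. The adjusted p of TWIST1 ran from 0.00274 to 0.182 over the alternatives. The list's median log2 fold change was 0.122, and that of the E proteins −0.167.

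Of the inhibitory SMADs, SMAD6 fell and SMAD7 did not pass the test. SMAD6, on chromosome 15 (66702228 to 66782848, plus strand), blocks BMP type I receptors in preference and is the gene whose window holds the palindrome shown above. It stood at 71.4, 67.4 and 71.4 CPM in NS and at 39.8, 49.0 and 58.6 CPM in shACSS2. All 3 shACSS2 libraries were below all NS libraries, and they were spread more widely: 70.1 ± 2.32 against 49.1 ± 9.42 CPM (SD, 3 libraries each). The log2 fold change was −0.51 (SE 0.124; adjusted p by edgeR = 0.0114). Without shACSS2 replicate 1, the lowest, it was −0.38 (adjusted p by edgeR = 0.0066), and with the correction for GC content and length −0.41, both past the test. The call was lost without NS replicate 1 (−0.50; adjusted p by edgeR = 0.0589) and without NS replicate 3 (−0.50; 0.0521), and the adjusted p ran from 0.000321 to 0.0589 over the alternatives.

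SMAD7, on chromosome 18 (48919853 to 48952052, minus strand), acts on both BMP and TGF-β receptors and did not pass the test. It stood at 24.6, 25.7 and 26.1 CPM in NS and at 21.5, 23.5 and 26.0 CPM in shACSS2, with overlapping groups. On the log2 scale the change was −0.10 (SE 0.115; adjusted p by edgeR = 0.573), and it passed in 0 of the alternatives, whose adjusted p ran from 0.328 to 0.830. Per length, SMAD6 exceeded SMAD7 by 1.71, 1.54 and 1.61 times in NS and by 1.085, 1.22 and 1.33 times in shACSS2. The pair thus came closer in level in every shACSS2 library. A ratio within a library shows unequal change and not which of the genes changed.

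Of the related corepressors SKI and SKIL, SKIL fell and SKI did not pass the test. SKIL, on chromosome 3 (170357678 to 170396835, plus strand), stood at 39.0, 37.0 and 38.8 CPM in NS and at 28.0, 21.3 and 25.1 CPM in shACSS2. The groups were far apart, and the fall from 38.3 ± 1.09 to 24.8 ± 3.35 CPM (SD, 3 libraries each) was the largest change among the 10 genes in the test as run on all libraries. This was a log2 fold change of −0.63 (SE 0.117; adjusted p by edgeR = 0.0026). The call held in all 17 alternatives, with log2 fold changes of −0.72 to −0.53. SKIL, poor in GC, was highest in shACSS2 replicate 1, and its fall was larger without that library.

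SKI, on chromosome 1 (2228695 to 2310119, plus strand), stood at 108.6, 101.1 and 109.5 CPM in NS and at 99.1, 121.3 and 123.4 CPM in shACSS2. Again shACSS2 replicate 1 was the lowest of the 6 libraries and replicates 2 and 3 the highest. The log2 fold change was 0.11 (SE 0.103; adjusted p by edgeR = 0.509). Without shACSS2 replicate 1 it was 0.20 and just past the test (adjusted p by edgeR = 0.0499). With the correction for GC content and length it was 0.15 and not past it (0.0761). The adjusted p of SKI ran from 0.0499 to 0.854 over the alternatives. Per length, SKI exceeded SKIL by 3.49 to 3.61 times in NS and by 4.54, 7.30 and 6.28 times in shACSS2. The difference between the fold changes of SKI and SKIL, or of SMAD6 and SMAD7, was not tested.

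BAMBI, on chromosome 10 (28677342 to 28682939, plus strand), encodes the decoy receptor and was the least abundant of the 10 in CPM. It stood at 13.9, 14.95 and 13.1 CPM in NS and at 20.3, 17.7 and 18.4 CPM in shACSS2, from 13.1 to 20.3 over all libraries and with no overlap. The means were 14.0 ± 0.911 and 18.8 ± 1.33 CPM (SD, 3 libraries each), a log2 fold change of 0.43 (SE 0.125; adjusted p by edgeR = 0.0287). The call was lost with library totals (0.36; adjusted p by edgeR = 0.0605). Leaving out NS replicate 1 (0.42; 0.118), NS replicate 3 (0.38; 0.128) or shACSS2 replicate 3 (0.44; 0.0620) ended it too. Its adjusted p ran from 0.0228 to 0.128 over the alternatives. With 244 to 329 counts per library, BAMBI had the smallest depth of the 10.

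BMPR2, on chromosome 2 (202376936 to 202567751, plus strand), did not pass the test. It stood at 65.7, 62.8 and 67.0 CPM in NS and at 70.9, 52.0 and 54.4 CPM in shACSS2. Replicate 1 of shACSS2 was above every NS library and replicates 2 and 3 below every one. On the log2 scale the change was −0.14 (SE 0.117; adjusted p by edgeR = 0.433). Without shACSS2 replicate 1 it was −0.29 and past the test (adjusted p by edgeR = 0.0167), and with the correction for GC content and length it was −0.03 (0.789), with adjusted p from 0.0167 to 0.826 over the alternatives. Without that library, 9 of the 10 genes passed the test, 6 higher and 3 lower, against 23.5% of all genes then tested, and SMAD7 did not (−0.04; adjusted p by edgeR = 0.830).

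**Figure D4:**
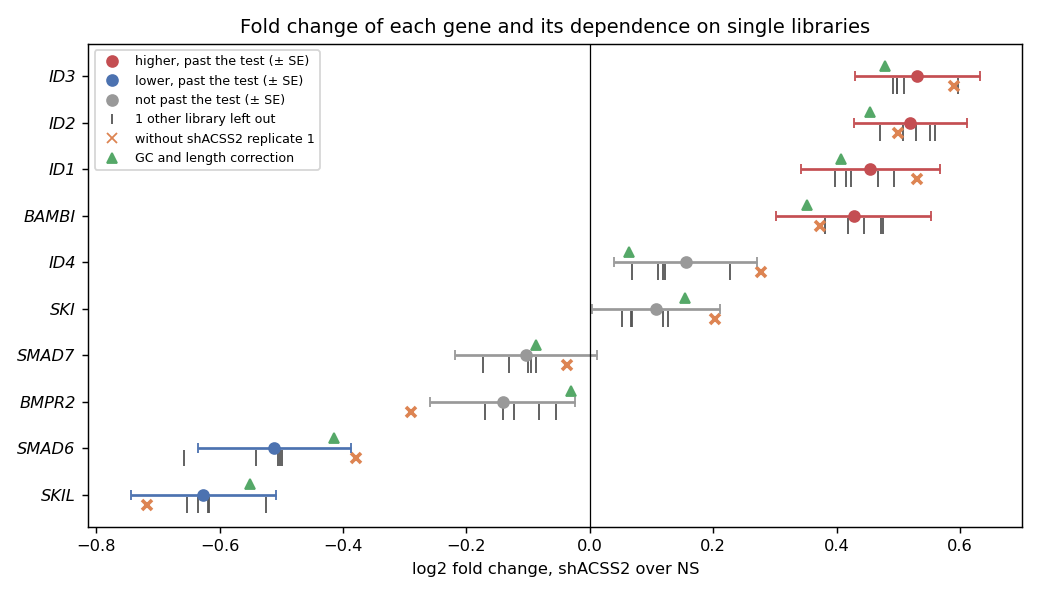
The log2 fold change of each gene, shACSS2 over NS, with its SE (circles, coloured by call), beside the values with 1 library left out (ticks), without shACSS2 replicate 1 (crosses) and with a correction for GC content and length (triangles). ID2, ID3 and SKIL stay far from 0 under each, and BMPR2 moves between −0.29 and −0.03.

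The rest of the BMP and TGF-β machinery was read from 13 lists, which also take in the E proteins and tissue-specific bHLH factors above. The genes of all 13 lists, called pathway genes here, numbered 143 in the table, of which 111 were tested. Rises numbered 16, falls 14 and genes not past the test 81, where 7.48% of all tested genes rose and 9.64% fell. The groups did not overlap for 53 of the 111 (36.3% of all tested genes). Their median log2 fold change was 0.061, beside 0.002 over all tested genes. The lists too were chosen with earlier results of these data known, which limits this comparison in the same way. Most ligands did not pass: 1 of 11 BMP and GDF ligands fell, 0 rose, and of 9 TGF-β, activin and nodal ligands 0 passed in either direction. BMP7, the most abundant BMP ligand, stood at 77.8 CPM in NS and 81.1 CPM in shACSS2 (log2 fold change 0.06; adjusted p by edgeR = 0.728), and its sign turned with library totals. TGFB1 stood at 85.3 and 82.1 CPM (−0.06), and its sign turned without shACSS2 replicate 1. Of the 6 receptor-regulated SMADs and SMAD4, 0 rose and 0 fell. SMAD5, the most abundant per length, stood at 131.6, 132.9 and 127.8 CPM in NS and at 159.5, 106.2 and 111.9 CPM in shACSS2 (−0.06; adjusted p by edgeR = 0.807). Without shACSS2 replicate 1 SMAD5 passed as lower (−0.26; adjusted p by edgeR = 0.0148), and the correction for GC content and length gave 0.0013 (0.992). Over the alternatives its adjusted p ran from 0.0148 to 0.992, and its sign changed. SMAD9 stood at 51.5 CPM in NS and 43.2 CPM in shACSS2 (−0.25; adjusted p by edgeR = 0.0891), and it passed with library totals, without shACSS2 replicate 1 and with the correction for GC content and length, with adjusted p from 0.0123 to 0.270 over the alternatives.

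The receptors that passed the test as run on all libraries fell. Of 7 type I receptors 2 fell, and of 4 type II receptors other than BMPR2 1 fell, with 0 rises in either list. Over all tested genes 9.64% fell and 7.48% rose. ACVR1B, the most abundant type I receptor per length, stood at 69.1 CPM in NS and 79.3 CPM in shACSS2. Its log2 fold change was 0.20, not past the test (adjusted p by edgeR = 0.152). Without shACSS2 replicate 1 ACVR1B passed as higher (0.23, adjusted p by edgeR = 0.0314). It also passed as higher with the correction for GC content and length (0.20, adjusted p by edgeR = 0.0290). Over the alternatives its adjusted p ran from 0.0290 to 0.393. TGFBR1 (ALK5), the type I receptor of TGF-β, fell from 59.4 ± 0.498 to 33.7 ± 3.27 CPM (SD, 3 libraries each; log2 fold change −0.82, SE 0.105; adjusted p by edgeR = 0.000148). ACVR2B, a type II receptor for activins and some BMP ligands, stood at 89.1, 78.9 and 89.2 CPM in NS and at 45.2, 48.4 and 56.0 CPM in shACSS2, a log2 fold change of −0.78 (SE 0.107). BMPR1B (ALK6), a BMP type I receptor of low level here, stood between 6.09 and 6.55 CPM in NS and between 3.55 and 3.67 CPM in shACSS2 (−0.79, SE 0.179; adjusted p by edgeR = 0.00793). The 3 falls were larger than that of SMAD6 or SKIL, and the calls held in all 17 alternatives. TGFBR3 (betaglycan), a co-receptor that presents TGF-β2 and inhibins, went the other way, from 42.1 to 61.5 CPM (0.55, SE 0.104; adjusted p by edgeR = 0.00283), and its call held as well.

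Regulators outside and inside the cell changed in both directions, where 7.48% of all tested genes rose and 9.64% fell. Of 11 secreted antagonists 2 rose and 0 fell in the test as run on all libraries, with a list median of 0.29. FSTL1, the most abundant of them per length, stood at 157.6 CPM in NS and 134.9 CPM in shACSS2. Its log2 fold change was −0.22, not past the test (adjusted p by edgeR = 0.115). FSTL1 passed as lower with library totals, without shACSS2 replicate 1 and with the correction for GC content and length. Over the alternatives its adjusted p ran from 0.00676 to 0.328. NBL1 (DAN), which binds BMP ligands, rose from 22.4 to 34.5 CPM (0.62, SE 0.121; adjusted p by edgeR = 0.00326). Of 16 intracellular regulators 4 rose and 4 fell. TGIF1, a corepressor of SMAD2 and SMAD3, rose from 9.91 to 16.3 CPM (0.72, SE 0.145), and USP15, a deubiquitinase that stabilises receptors and SMADs, from 85.2 to 129 CPM (0.60, SE 0.115). TRIM33, a ubiquitin ligase that acts on SMAD4, fell from 121 to 79.9 CPM (−0.59, SE 0.126), and PPM1A, a phosphatase of receptor-regulated SMADs, from 68.5 to 45.8 CPM (−0.58, SE 0.111). Of 7 partners and relatives of SKI 1 rose and 3 fell, and HIPK2, a nuclear kinase that joins SKI in repressing BMP targets, fell from 134 to 72.4 CPM (−0.88, SE 0.112; adjusted p by edgeR = 0.000133). The calls of NBL1, TGIF1, USP15, TRIM33, PPM1A and HIPK2 held in all 17 alternatives.

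Target genes other than the ID family gave 6 rises and 1 fall, where 7.48% of all tested genes rose and 9.64% fell. Of 9 other BMP targets 3 rose and 0 fell: DLX5, a homeobox factor of bone and forebrain, went from 8.80 to 12.7 CPM (0.53), GATA2 from 41.2 to 54.6 CPM (0.41) and MSX1, a homeobox factor, from 44.3 to 55.3 CPM (0.32). HEY1, the most abundant of them, stood at 300.2 and 333 CPM (0.15; adjusted p by edgeR = 0.266). Of 13 other TGF-β targets 3 rose and 1 fell: SNAI1 went from 2.54 to 4.40 CPM (0.80), CDKN1C (p57) had a log2 fold change of 0.53 and CYR61 (CCN1) one of 0.41, and FN1 (fibronectin), also a mesenchymal marker, went from 70.6 to 53.5 CPM (−0.40). The list medians were 0.036 and 0.215. None of these 7 calls held in every alternative. Those of GATA2, MSX1, CDKN1C and CYR61 were lost without any 1 library other than shACSS2 replicate 1, and with library totals, at adjusted p up to 0.193 (MSX1 and CYR61 also with no count filter). That of DLX5 was lost when NS replicate 1, NS replicate 3 or shACSS2 replicate 2 was left out (up to 0.0915), that of SNAI1 without NS replicate 3 or shACSS2 replicate 2 (up to 0.110). FN1 lost its call without NS replicate 1 or NS replicate 3 (up to 0.0937), and with the correction for GC content and length, which moved it to −0.22 (adjusted p by edgeR = 0.0854, in a range of 0.00555 to 0.0937).

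The other calls that rested on single libraries were those of GDF7, a BMP-family ligand, ENG and RGMA, both co-receptors, FST (follistatin), an antagonist of activins and BMP ligands, STRAP, a partner of SMAD7, and HDAC1, NCOR1 and DACH1, which work with SKI or resemble it. FST went from 1.33 to 2.84 CPM (1.08, SE 0.277), ENG from 5.40 to 3.04 CPM (−0.82, SE 0.224), and GDF7 from 24.5 to 17.6 CPM (−0.48, SE 0.131). The call of FST was lost without NS replicate 1 or shACSS2 replicate 2 (edgeR adjusted p up to 0.0623), that of ENG without the same libraries (up to 0.126), and that of GDF7 without these or NS replicate 3 (up to 0.0997). RGMA went from 28.8 to 19.9 CPM (−0.53) and lost its call without NS replicate 1 or NS replicate 3 (up to 0.0638). NCOR1 went from 145 to 110.2 CPM (−0.40) and lost it without NS replicate 1 (0.0808). HDAC1 (0.30), STRAP (0.31) and DACH1 (−0.37) lost theirs when NS replicate 1, NS replicate 3, shACSS2 replicate 2 or shACSS2 replicate 3 was left out (DACH1 also NS replicate 2, STRAP also shACSS2 replicate 1), at adjusted p up to 0.203, and HDAC1 and STRAP also with library totals. Of the 27 pathway genes past the test that the naming rule selected, 11 held their call in all alternatives.

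**Figure D5:**
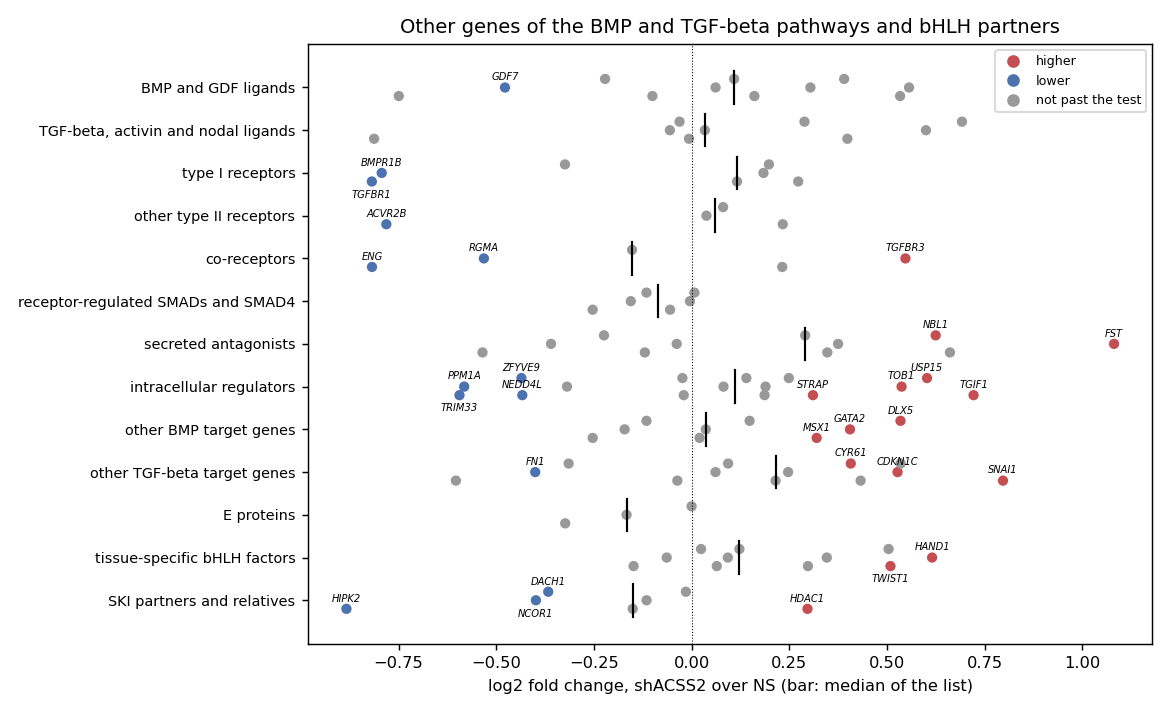
Each point is a tested gene of 1 of the 13 pathway lists, with its log2 fold change (shACSS2 over NS) on the horizontal axis; red genes rose, blue genes fell, grey genes did not pass the test, and the bar is the list's median. TGFBR1, BMPR1B, ACVR2B and HIPK2 lie near −0.8 to −0.9, and most of the 111 genes are grey.

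A short 3′ UTR sequence was looked for in the 10 genes and the pathway genes. The 7-base sequences ATGCTCA and TGCTCAA, which had been picked from these same fold changes in an earlier analysis and therefore support nothing here, were searched in the longest annotated 3′ UTR of each gene (GENCODE v29). They were in 0 of the 10 genes, SMAD6 and SKIL included, both of which fell. They were in 9 of the 14 pathway genes that fell (64.3%), 1 of the 16 that rose (6.25%, USP15) and 15 of the 81 not past the test (18.5%). Of the type I and other type II receptors tested, 3 of 3 that fell held them, as did 4 of 8 not past the test (ACVR1C, ACVRL1, BMPR1A and TGFBR2, named after their values were seen). Over all tested genes whose 3′ UTR has at least 50 bases the shares were 43.9% of those that fell, 6.75% of those that rose and 16.0% of the rest. Genes that fell also had longer 3′ UTRs, with a median of 2228 bases against 938 in those that rose, and 1401 in the 10 genes. Whether these cells express the longest form was not examined. Sites in TGFBR1 (chr9:99151893-99151922 and chr9:99152409-99152438), ACVR2B (chr3:38491013-38491042) and BMPR1B (chr4:95156026-95156055, 1 of 4 in that gene), all on the plus strand, are shown because these receptors had the largest falls of their lists. Each line gives 30 bases of the 3′ UTR, 5′ to 3′ in DNA letters, with the match in capitals. In ACVR2B and BMPR1B the sequences overlap as ATGCTCAA, which is the case in only 1 of the 4 sites of BMPR1B.
TGFBR1, first site: cccatcctaggATGCTCAccttccaagatt
TGFBR1, second site: taataatgatagTGCTCAAgaagtgccttg
ACVR2B: tccagtcgctaATGCTCAAatgtagaacat
BMPR1B: ttattctagtgATGCTCAAttcactattta

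Genes whose level over the 6 libraries ran most like that of an ID gene were sought among the 10446 that averaged at least 10 CPM, by Pearson correlation of log2 CPM. For ID1 these were INSIG1 (0.998), RPL28 (0.998) and RACK1 (0.996), with the caution that ribosomal protein genes have pseudogenes that can share reads, for ID2 CISD1 (0.996), MRPS9 (0.995) and GOT2 (0.994), and for ID3 RUVBL2 (0.997), PAFAH1B3 (0.997) and NSUN5 (0.996). The 6 points fall into 2 groups and share libraries, depth and the GC shift of shACSS2 replicate 1, so these coefficients are a description. The 3 ID genes had no gene in common among them. With only 3 genes kept for each, this does not show that their profiles differ.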

How the data were processed

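RNA was sequenced from 6 libraries, 3 NS and 3 shACSS2. The table the authors deposited gives raw whole-number read counts per gene. The submitters' processing notes name the build hg19 and the tools HISAT2 2.0.5, fastp, DESeq2 (there as 4.3.1) and featureCounts 1.5.0-p3. All 58735 gene identifiers match GENCODE v29, an annotation of GRCh38, so gene positions are from GENCODE v29 and the build of the alignment is uncertain. Of the gene names, 27 differed from those of GENCODE v29 and were restored from the identifier. No source used here gives the strand setting or the handling of reads that match several places, so reads of antisense or near-identical genes cannot be told apart.

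The counts were fitted in R 4.3.3 with edgeR 4.0.16 (scaling by TMM, the default filter by group, robust quasi-likelihood F test, Benjamini-Hochberg adjustment over 16210 genes at 0.05). The procedure was tested on simulated data. SE is the absolute log2 fold change divided by the square root of F. TPM values use the summed length of annotated exons. Marker levels are CPM on library totals, and 1 marker is not reported here. The rest used scipy 1.17.1, numpy 2.4.6 and pandas 2.3.3 in Python 3.11.15.

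The genes and lists were chosen with earlier results of these data known. The genes named are the 10 genes and ACSS2. Each pathway list adds its most abundant gene per length and, by size of change, up to 4 genes past the test that average 1 CPM or more (if there is none, up to 2 by smallest p). The 3 genes most like each of ID1, ID2 and ID3 complete them. Not all of them are described.

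Alternatives were RLE, upper-quartile and no composition scaling, no count filter or 1 CPM in 3 libraries, DESeq2 1.42.0, voom of limma 3.58.1, an adjusted p of 0.01, omission of mitochondrial genes or of each library in turn, a replicate block, and offsets for GC content and length without and with that block. GC content came from GENCODE v29 transcripts, and 9 tested genes without a value were given the median. Comparison of the protein sequences was not analysed here.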

Additional observations from a re-analysis of the deposited data

How the results depend on the processing

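Of 53 log2 fold changes, each computed under 17 alternatives, 32 changed call or direction at least 1 time and 4 reversed. Of the 10 genes, 4 rose and 2 fell in the test as run. Library totals gave 734 higher genes over all (1213 as run) and 9 higher pathway genes (16 as run), so that 25.8% of calls were higher instead of 43.7%. The GC and length correction gave 2144 higher and 2143 lower genes. At an adjusted p of 0.01 there were 330 higher and 680 lower genes, 2 and 1 of the 10, and 6 and 7 pathway genes. Leaving out each library in turn gave 310 to 1837 higher and 708 to 2094 lower genes, 2 to 6 and 1 to 3 of the 10, and 8 to 20 and 6 to 21 pathway genes; the lowest overall counts came without NS replicate 1 and the highest without shACSS2 replicate 1. The cause was not tested.

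Same-numbered libraries did not deviate together (correlations −0.043, −0.066 and 0.112), so the numbers are not taken as pairs. With the replicate block 2923 genes passed (1283 higher, 1640 lower), ID2 stayed at 0.52, the 6 calls among the 10 genes held, and MSX1 and CYR61 lost theirs (adjusted p by edgeR = 0.0567 for both). With both the block and the GC and length correction 2252 genes were higher.

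The 4 fold changes that reversed were near 0 in the test as run: TCF3 (RLE 0.0024, upper quartile 0.0079, no filter 0.0024, DESeq2 0.0098, GC and length 0.0447, with the block too 0.0432, and −0.0883 to 0.1406 with 1 library left out), BMP7 (library totals −0.0117), SMAD5 (GC and length 0.0013, −0.2592 to 0.0565 with 1 library left out) and TGFB1 (−0.1486 to 0.0646 with 1 library left out). With 3 libraries a group and 244 to 6145 counts per library for each of the 10 genes, a gene not past the test may still differ.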
